A study of Mus musculus with 18 samples.

Results

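The genes described here are splicing factors and RNA helicases: SR proteins, proteins of nuclear speckles, components and kinases of the spliceosome, hnRNPs and 3 RNA helicases. The set names 35 genes by symbol. Of these, 34 were found on the array among 22180 genes that a row names alone, and Srsf7 is not analysed here because no row named it alone. Where several rows named a gene, the one that varied most between the 18 arrays (by SD) stands for it. That choice uses the measured values, and it touched 6 genes (Srsf1, Srsf6, Luc7l2, Hnrnpu, Hnrnpk and Hnrnpd), whereas the other 28 have 1 row each. The symbols were put together with results of these arrays already known, so counts over the set describe it and are no independent support for its direction.

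RNA of epidermal sheets from the shaved back skin of female mice was read on an Affymetrix whole-transcript array. Mice of the line B6.129-AhRtm1Bra/J that lack the aryl hydrocarbon receptor (AhR-/-, here KO) were set beside their littermates with 2 intact alleles (AhR+/+, here WT), all on a B6;129 background. Skin was unstressed (0 h) or was taken 6 h or 24 h after mechanical stress, in which Tegaderm film was pressed on and pulled off 5 times, a procedure called tape stripping. Genotype and time give 6 groups of 3 arrays. Per the series' design text the mice of a time point were littermates, so litter and time cannot be told apart in comparisons between times. An array is taken as 1 animal, which is an assumption. The null allele is carried by every cell, so T cells and Langerhans cells of KO epidermis lack the receptor as well as keratinocytes, and the labels give no age. Keratinocytes make up most of the epidermis, and the array reads all cells of the sheet together, so fewer cells of a type and less RNA per cell cannot be told apart in any value below. As deposited, values were already logarithms, taken here as log2 (the base is not stated), and the median of each row over the 18 arrays has been set to 0. A value therefore says how far an array lies from the middle array for that gene, and levels of different genes, or the presence of a cell type, cannot be read from it.

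Pre-mRNA splicing is carried out by the spliceosome, which is built on each intron from small nuclear ribonucleoproteins (snRNPs) and many further proteins. SR proteins bind exon sequences through RNA recognition motifs and bring in the U1 and U2 particles through domains rich in arginine and serine, while hnRNPs bind pre-mRNA more widely and often oppose them. CLK kinases and Prpf4b phosphorylate SR-type proteins, nuclear speckles store and assemble these factors, and DEAD and DEAH box helicases remodel RNA and RNA-protein complexes. Many genes of SR proteins and hnRNPs also control their own transcripts through exons or introns whose use leads to decay or to retention in the nucleus. A gene-level array row adds up the probes of a gene and does not separate such forms.

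Where the start sites of these genes lie bears on AhR, because the dimer of AhR and ARNT binds DNA elements built around the letters GCGTG. RefSeq start-site windows of build GRCm38.p6, running from 250 bases before to 50 bases after each annotated start, were found for 33 of the 34 genes (not for Clk1) and numbered 49. The letters GCGTG occurred on either strand in 33 of the 49 windows (67.3%), in at least 1 window of 24 of the 33 genes, against 32.4% of the 32851 windows of all genes. The windows of these genes also held more CG dinucleotides, with a median of 27 per window against 7 over all genes, and a median GC content of 62.3% against 52.7%. Their part in the share of GCGTG was not tested. Windows of the same gene can overlap, so a single match may be counted more than once. The share of all genes with a match in any window is not given here. The letters CCGGAAG, the core of ETS sites, stood in 28.6% of the windows against 8.9% of all, TGACG, a cyclic AMP response core, in 49.0% against 20.8%, CCAAT in 38.8% against 37.4% and TATAAA in 10.2% against 13.6%, each on either strand. A match is a string of letters and not a bound site. The 4 windows printed here belong to genes of a single window that changed at 24 h in KO, 1 from each of 4 roles, and show in capitals where GCGTG or its reverse complement CACGC lies. They are given 5' to 3' on the strand of the gene, which is the plus strand for Pnn (chr12:59066669-59066968) and Clk4 (chr11:51262864-51263163) and the minus strand for Dhx9 (chr1:153487611-153487910) and Tra2b (chr16:22265956-22266255).
Pnn: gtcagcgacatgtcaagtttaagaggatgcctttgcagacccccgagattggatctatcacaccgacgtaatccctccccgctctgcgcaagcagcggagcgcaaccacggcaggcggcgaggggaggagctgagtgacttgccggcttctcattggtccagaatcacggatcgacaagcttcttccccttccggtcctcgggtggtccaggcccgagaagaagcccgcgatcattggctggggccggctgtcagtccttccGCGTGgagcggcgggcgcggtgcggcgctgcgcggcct
Clk4: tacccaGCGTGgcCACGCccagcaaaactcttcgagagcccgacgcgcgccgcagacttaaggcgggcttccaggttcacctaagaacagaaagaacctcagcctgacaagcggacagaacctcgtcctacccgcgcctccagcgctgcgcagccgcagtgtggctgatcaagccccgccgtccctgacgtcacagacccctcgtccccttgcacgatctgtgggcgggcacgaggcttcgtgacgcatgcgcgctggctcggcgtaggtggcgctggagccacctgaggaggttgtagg
Dhx9: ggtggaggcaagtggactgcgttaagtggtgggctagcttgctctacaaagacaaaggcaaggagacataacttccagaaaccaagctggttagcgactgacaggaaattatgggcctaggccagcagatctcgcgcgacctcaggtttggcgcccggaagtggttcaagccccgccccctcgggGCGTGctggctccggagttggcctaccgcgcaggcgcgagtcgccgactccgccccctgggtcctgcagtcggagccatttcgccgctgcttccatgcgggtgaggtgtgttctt
Tra2b: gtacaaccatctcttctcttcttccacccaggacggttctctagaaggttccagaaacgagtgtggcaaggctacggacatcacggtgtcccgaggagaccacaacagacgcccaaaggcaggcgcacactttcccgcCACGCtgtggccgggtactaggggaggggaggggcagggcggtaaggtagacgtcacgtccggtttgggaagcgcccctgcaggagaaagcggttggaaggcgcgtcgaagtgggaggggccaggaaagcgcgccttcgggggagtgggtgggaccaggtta
Counted from the start site, the first base of the match lay at position 12 in Pnn, at -244 and -237 in Clk4, at -65 in Dhx9 and at -112 in Tra2b. The windows of Rbm39, Rbm5, Prpf4b, Son and Luc7l2, which changed in KO as well, had no match, which says only that these letters are absent from those windows.

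Several facts of the whole series touch what follows. For Ahr, the targeted gene, no KO array reached the lowest WT array of its time. The KO minus WT differences were -0.32 log2 at 0 h, -1.11 at 6 h (SE 0.143, limma adjusted p = 0.00549) and -0.70 at 24 h. Only the 6 h difference passed the threshold of 0.05. For unstressed skin limma gave an adjusted p of 0.556, and for skin taken a day after stripping 0.22. In unstressed skin the highest KO array (0.04) lay just below the lowest WT array (0.072). The labels carry a 4-digit number for each sample, whose meaning they do not give. Split at 3000, the lower numbers belong to 1 KO and 2 WT arrays at 0 h and to 2 arrays of each genotype at 6 h, and every array of 24 h has a higher number. The 3 arrays of 0 h with higher numbers (KO replicates 2 and 3, WT replicate 1) stood apart from the other 0 h arrays: their SDs over all rows were 0.18, 0.219 and 0.222, against 0.141 to 0.15. In the same 3 arrays the list of nuclear-retained long RNAs (8 of 10 measured) had median centred values of 0.20 to 0.33 against -0.071 to -0.017 in the other 0 h arrays, and cytosolic ribosomal proteins (37 of 43 measured) had -0.21 to -0.11 against -0.011 to 0.025. Langerhans cell markers (9 of 10 measured) lay at -0.66 to -0.15 there and at 0.078 to 0.30 in the others. At 6 h the long RNAs also lay higher in arrays with higher numbers, at 0.151 to 0.163 against -0.374 to -0.031. Ribosomal proteins at 6 h went the other way than at 0 h, with 0.061 to 0.067 against -0.07 to 0.018. At 24 h, where all numbers are higher, the long RNAs lay at -0.05 to 0.061. With the label number as a term over all arrays, 2 of the 8 long RNAs were called higher (limma). Markers of epidermal T cells (8 of 13 measured) were lower in KO at every time, from -0.85 to -0.19 against 0.30 to 0.73 in WT at 0 h. The part of these shifts in the results below was not tested.

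As a description of the chosen rows, their SD over the 18 arrays ran from 0.136 to 0.676 log2, with Hnrnpu and Ddx5 the highest. The median was 0.29, against 0.137 over all genes with their rows chosen the same way. Rows were chosen by this SD, so it is no finding, and the further rows of Luc7l2 and Srsf6 had SDs of 0.0995 and 0.134. The median of the 34 genes in each array, a description with no test, was 0.082, 0.24 and 0.41 in KO and 0.62, 0.024 and 0.048 in WT at 0 h. The 6 h arrays gave 0.011, 0.031 and -0.018 for KO and -0.001, 0.14 and -0.052 for WT. The 24 h arrays gave -0.21, -0.21 and -0.25 for KO and -0.20, 0.015 and -0.07 for WT. WT replicate 2 of 24 h, the highest of these, also differed in cell markers: the median of hair follicle markers (15 measured) was 1.16 there and at most 0.205 in the others. Sebaceous gland markers (10 measured) had 0.34 there and at most 0.181 elsewhere, and melanocyte markers (8 measured) 0.40 and at most 0.371. Langerhans cell markers (9 measured) had -0.53, with KO replicate 3 of 0 h lower still at -0.66. Their part in the result was not tested. The set was thus highest in the 3 arrays of 0 h with higher numbers and lowest in KO at 24 h, where all 3 arrays lay below every other array of the series. Of the 34 genes, 28 had their highest value in one of those 3 arrays of 0 h, which held for 17.7% of all named rows, and 24 had their lowest value in an array of 24 h (28.7% of all named rows). A single array, KO replicate 3 of 24 h, was the lowest of all 18 for 15 genes (7.3% of all named rows).

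**Figure D1:**
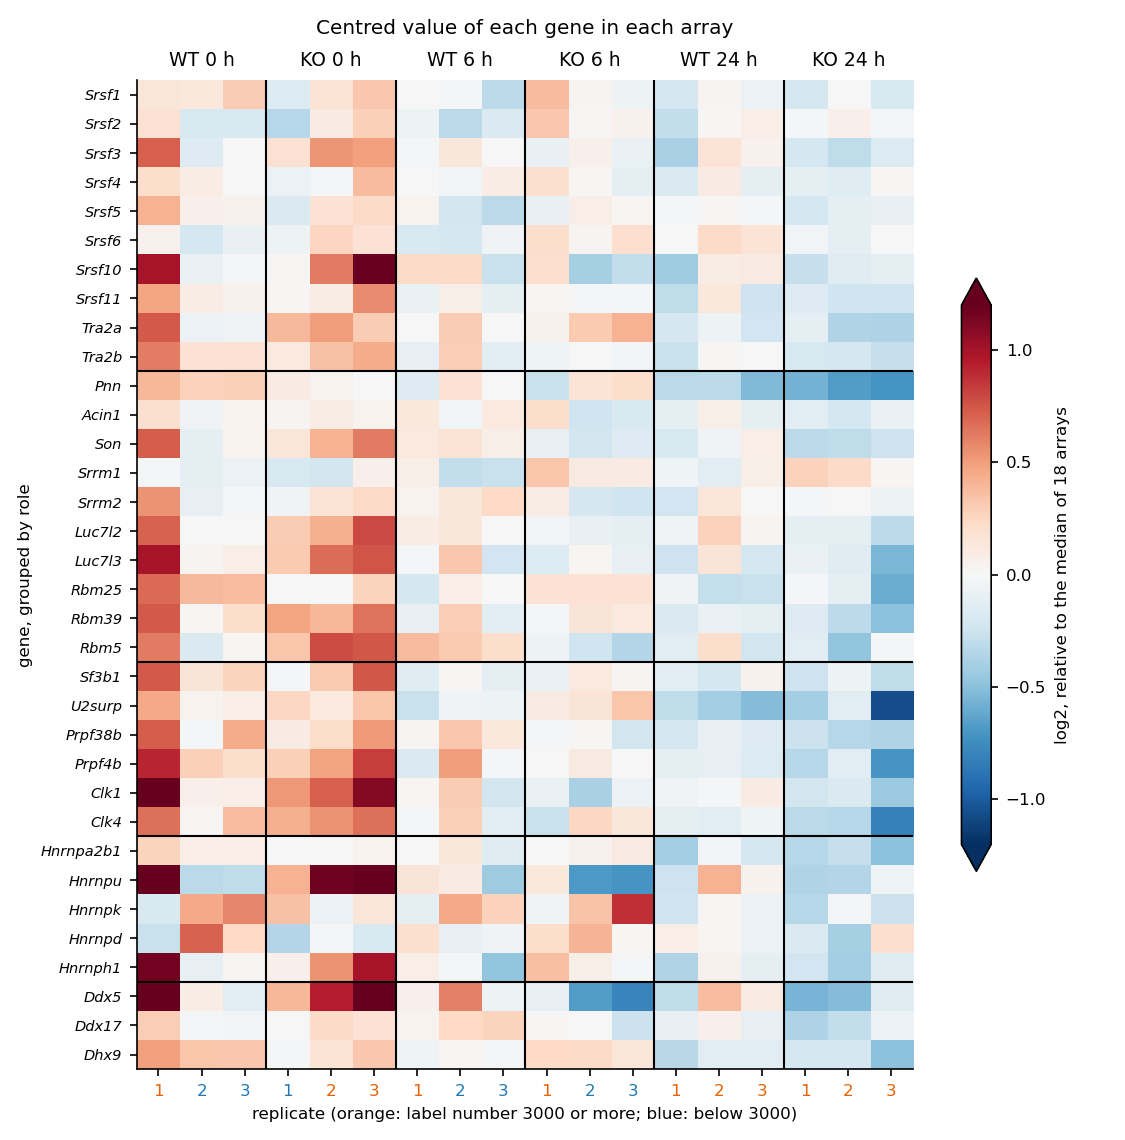
Centred log2 value of each of the 34 genes (lines, grouped by role in the order SR proteins, speckle proteins, spliceosome and kinases, hnRNPs, helicases) in each of the 18 arrays (columns, 3 per group), with red above and blue below the median of the gene. Red gathers in the 3 arrays of 0 h with higher label numbers, where 28 of the 34 genes peak, and blue in KO at 24 h.

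**Figure D2:**
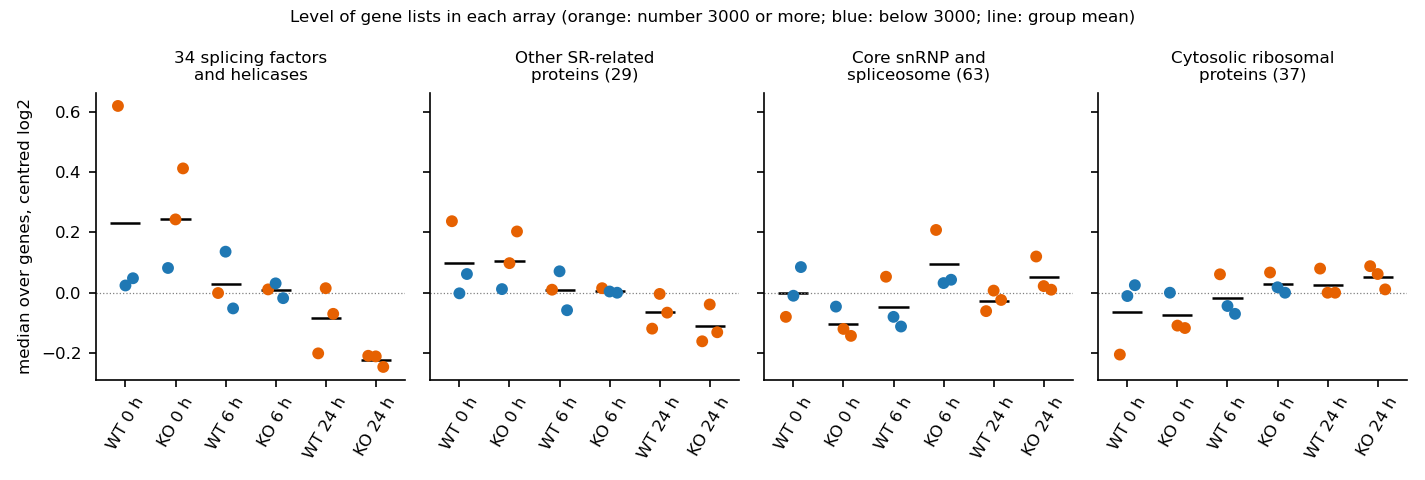
Median centred log2 value per array (points, 3 per group, the line is the group mean) of the 34 genes and of 3 further gene lists, coloured by label number. The 34 genes reach 0.62 in a WT array of 0 h and lie between -0.25 and -0.21 in KO at 24 h, whereas core snRNP proteins lie between 0.01 and 0.12 there.

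The comparison of 24 h with 0 h asks how epidermis changes a day after its outer layers are stripped, with litter not separable from time. In KO, 19 of the 34 genes fell and none rose, where 6.47% of all 23521 rows were lower, 3.09% higher and 9.56% either (limma, adjusted p under 0.05). The median difference of the 34 genes was -0.57 log2, against 0.024 over all rows. Every one of the 6 spliceosome components and kinases fell, all 3 helicases, 6 of 10 speckle and SR-related proteins, 3 of 10 SR and Tra2 proteins and 1 of 5 hnRNPs. These are calls at a threshold and were not equally firm. Over 19 alternative fits each, Sf3b1 lost its call in 10, Ddx17 and Srsf3 in 8 and Prpf38b in 6. Pnn, Rbm39 and Clk4 each lost it in 1, and none of these genes reversed. Only Srrm1 and Hnrnpd lay above 0, by 0.30 (SE 0.107, adjusted p = 0.0983) and 0.06. In WT, 2 genes fell, Pnn and Dhx9, against 0.0298% of all rows, with a median of -0.35 for the 34 genes and 32 of them below 0. The test of the difference between genotypes in this response called none of the 34 genes and none of all rows (limma, 5 of the 34 with an unadjusted p under 0.05), so a stronger fall in KO than in WT was not shown. The median of that difference over the 34 genes was -0.14, and 0.038 when the 0 h arrays with higher numbers alone were used. The arrays did not overlap, with 24 h lower, in 25 of the 34 genes in KO (13.7% of all rows) and in 13 in WT (8.43%), and the reverse held for none (9.31% of all rows in WT, 15.8% in KO).

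Those counts rest on which 0 h arrays are used, and Srrm1 was called higher in KO when arrays were weighted. Set against the 2 KO arrays of 0 h with higher numbers alone, 24 genes were lower at 24 h, among them all 19. Set against the single KO array of 0 h with a lower number, none was called and the median was -0.36. Leaving out KO replicate 3 of 0 h left 4 calls, KO replicate 2 of 0 h 8 calls, and KO replicates 1, 2 and 3 of 24 h 10, 11 and 10. A group left with 1 array has no spread of its own, and that of the remaining groups is taken for it. The share of all rows called in these refits is not given here, so their counts are not read as particular to the 34 genes. In the fit by number class below, 10.7% of all rows were lower at 24 h against the 0 h arrays with higher numbers. Against those with lower numbers it was 3.29%. In WT, 9 genes were lower against the single array of 0 h with a higher number (median -0.73) and none against the 2 with lower numbers (median -0.11), and no array of 0 h or 24 h in WT could be left out without losing both calls, which lay at the threshold.

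**Figure D3:**
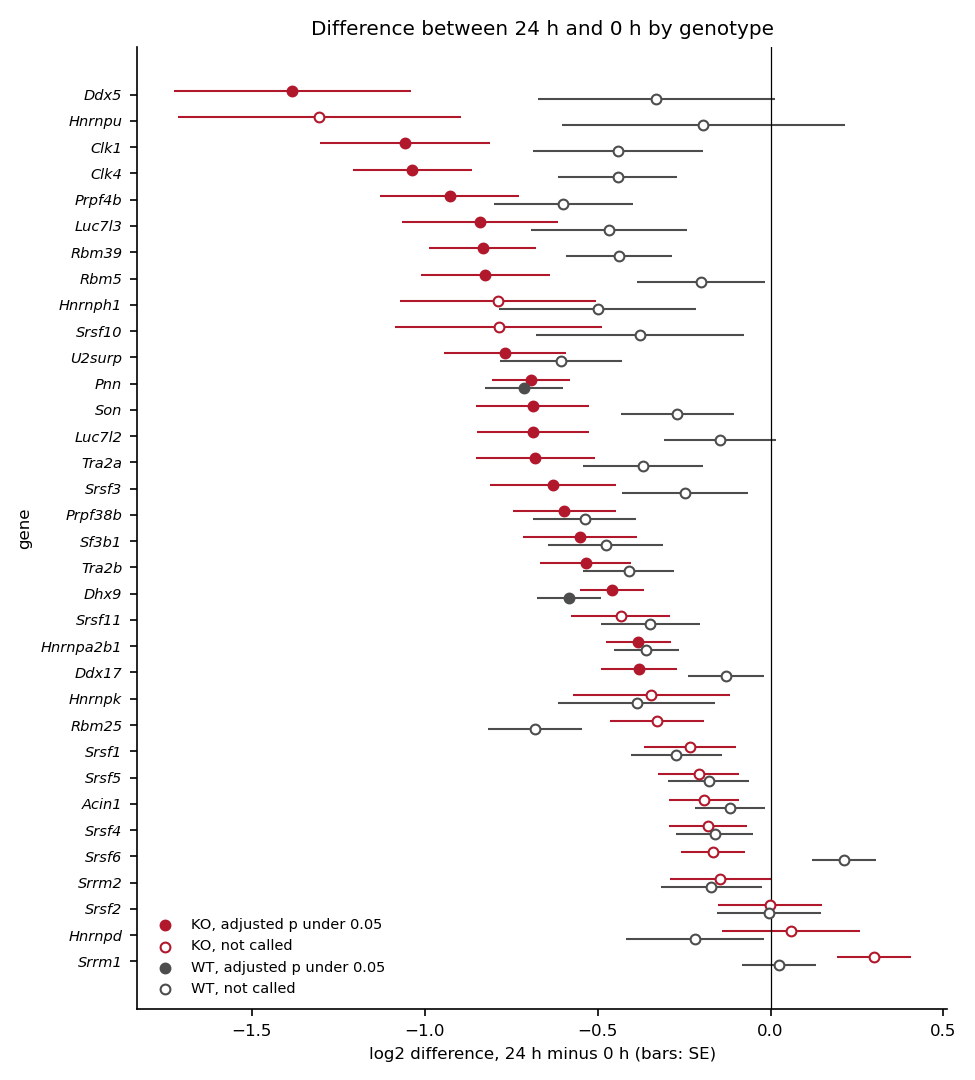
Difference between 24 h and 0 h (log2, bars show the SE of the fit, 3 arrays against 3) for each of the 34 genes in KO and in WT, with filled points where the adjusted p was under 0.05. In KO 19 points are filled, all on the negative side and down to -1.38 for Ddx5, and in WT only Pnn and Dhx9 are filled.

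Among SR proteins and their Tra2 relatives, Srsf3, Tra2a and Tra2b fell in KO at 24 h. Tra2b binds GAA-rich exon enhancers and works together with SR proteins. In KO its centred values were 0.12, 0.35 and 0.44 (0 h), -0.052, 0.003 and -0.033 (6 h) and -0.20, -0.21 and -0.28 (24 h). In WT they were 0.62, 0.17 and 0.18 (0 h), -0.10, 0.29 and -0.13 (6 h) and -0.27, 0.015 and -0.003 (24 h). All 3 KO arrays of 24 h lay below all others of the genotype, and in WT the groups of 0 h and 24 h did not overlap either, with WT replicate 1 of 0 h the highest of all 18. Tra2b fell by 0.54 log2 in KO (SE 0.131, adjusted p = 0.0195), and the WT difference was -0.41 (adjusted p = 0.194). Tra2a, its paralogue, fell by 0.68 in KO (SE 0.173, adjusted p = 0.0229), from 0.30 to 0.50 at 0 h to -0.38 to -0.12 at 24 h. Srsf3, the smallest of the classical SR proteins and one that also acts in mRNA export, fell by 0.63 (SE 0.182, adjusted p = 0.0424), from 0.18 to 0.53 to -0.31 to -0.16. The other 7 (Srsf1, Srsf2, Srsf4, Srsf5, Srsf6, Srsf10 and Srsf11) were not called, with differences from -0.79 for Srsf10, a splicing repressor when dephosphorylated, to -0.001 for Srsf2. Srsf10 did not overlap between the groups but varied widely, with an SE of 0.30 (adjusted p = 0.122).

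Pinin, encoded by Pnn, is an SR-related protein of nuclear speckles that was first described at desmosomes, the junctions that hold keratinocytes together. In KO, Pnn read 0.10, 0.039 and -0.009 (0 h), -0.27, 0.17 and 0.21 (6 h) and -0.57, -0.67 and -0.72 (24 h). Its WT values were 0.40, 0.28 and 0.29 (0 h), -0.16, 0.17 and 0.009 (6 h) and -0.32, -0.33 and -0.53 (24 h). All 6 arrays of 24 h lay below all 12 others, and KO lay below WT at 0 h and at 24 h with no overlap. It fell by 0.69 log2 in KO (SE 0.112, adjusted p = 0.00259), the smallest adjusted p of the 34 genes, and by 0.71 in WT (SE 0.112, adjusted p = 0.05 after rounding, just inside the threshold). Its difference between higher and lower numbers at 0 h was 0.012 (SE 0.0748), where the median of the 34 genes was 0.37.

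Rbm39 is an SR-related coactivator of splicing and transcription. Its values in KO were 0.48, 0.40 and 0.65 (0 h), -0.01, 0.15 and 0.12 (6 h) and -0.16, -0.32 and -0.49 (24 h). Those in WT were 0.73, 0.01 and 0.21 (0 h), -0.092, 0.30 and -0.13 (6 h) and -0.17, -0.083 and -0.12 (24 h). KO fell at 24 h with no overlap, by 0.83 log2 (SE 0.154, adjusted p = 0.00497), and the WT arrays also did not overlap (difference -0.44, adjusted p = 0.236). Rbm5 regulates exon choice in genes of cell death, and in KO it read 0.33, 0.78 and 0.74 (0 h), -0.057, -0.24 and -0.35 (6 h) and -0.12, -0.47 and -0.022 (24 h). The WT arrays gave 0.62, -0.17 and 0.022 (0 h), 0.38, 0.31 and 0.21 (6 h) and -0.13, 0.21 and -0.22 (24 h). KO was high at 0 h alone, and at 6 h every KO array lay below every WT array. Rbm5 fell by 0.83 in KO at 24 h (SE 0.186, adjusted p = 0.0133), and the WT difference was -0.20 (adjusted p = 0.726).

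Son is a large protein that holds nuclear speckles together. It read 0.14, 0.42 and 0.63 (0 h), -0.10, -0.22 and -0.15 (6 h) and -0.33, -0.30 and -0.25 (24 h) in KO. Its WT values were 0.73, -0.10 and 0.038 (0 h), 0.11, 0.17 and 0.072 (6 h) and -0.19, -0.038 and 0.076 (24 h). Its 3 highest values were the 3 arrays of 0 h with higher numbers, and the 3 KO arrays of 24 h were the 3 lowest. It fell by 0.69 in KO (SE 0.163, adjusted p = 0.0168), while the WT difference was -0.27. Luc7l2, a protein of the U1 snRNP that helps select 5' splice sites, read 0.31, 0.42 and 0.79 (0 h), -0.03, -0.088 and -0.10 (6 h) and -0.12, -0.11 and -0.31 (24 h) in KO. In WT the values were 0.70, 0.003 and -0.007 (0 h), 0.085, 0.14 and -0.003 (6 h) and -0.043, 0.27 and 0.032 (24 h). It fell by 0.69 in KO (SE 0.162, adjusted p = 0.0166), but a further row of Luc7l2 gave a difference of 0.002 (SE 0.0772), so its rows disagree. Luc7l3, of the same family, has 1 row and fell by 0.84 (SE 0.225, adjusted p = 0.0289), from 0.31 to 0.76 at 0 h to -0.55 to -0.082 at 24 h. The remaining 4 genes of this group were not called: Acin1 (acinus) differed by -0.19, Rbm25 by -0.33, Srrm2, a scaffold of speckles, by -0.15 and Srrm1, a coactivator of exon enhancers, by 0.30.

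All 6 components and kinases of the spliceosome in the set fell in KO at 24 h, with a median of -0.85 log2. Clk4, a kinase that releases SR proteins from speckles, read 0.43, 0.54 and 0.66 (0 h), -0.26, 0.25 and 0.13 (6 h) and -0.33, -0.34 and -0.81 (24 h) in KO. The WT arrays gave 0.66, 0.012 and 0.37 (0 h), -0.012, 0.28 and -0.13 (6 h) and -0.10, -0.12 and -0.05 (24 h). At 24 h every KO array lay below every WT array, and below all KO arrays of the other times. Clk4 fell by 1.04 (SE 0.172, adjusted p = 0.00298), a 2.05-fold difference, with a WT difference of -0.44 (adjusted p = 0.289). Clk1, a kinase of the same family, had values of 0.52, 0.71 and 1.10 (0 h), -0.077, -0.39 and -0.068 (6 h) and -0.22, -0.17 and -0.44 (24 h) in KO. Its values in WT were 1.22, 0.061 and 0.078 (0 h), 0.026, 0.30 and -0.22 (6 h) and -0.038, -0.026 and 0.094 (24 h). The 3 arrays of 0 h with higher numbers were its highest. It fell by 1.06 (SE 0.246, adjusted p = 0.0153), a 2.08-fold difference.

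Prpf4b, a kinase bound to the U4/U6.U5 particle, read 0.29, 0.48 and 0.83 (0 h), 0.007, 0.11 and -0.007 (6 h) and -0.34, -0.14 and -0.71 (24 h) in KO. In WT it read 0.92, 0.29 and 0.21 (0 h), -0.17, 0.50 and -0.017 (6 h) and -0.12, -0.10 and -0.16 (24 h). The groups of 0 h and 24 h did not overlap in either genotype. KO fell by 0.93 (SE 0.201, adjusted p = 0.0109), and the WT difference was -0.60 (adjusted p = 0.216). U2surp, an SR-related protein of the U2 particle, read 0.24, 0.12 and 0.34 (0 h), 0.10, 0.15 and 0.33 (6 h) and -0.41, -0.14 and -1.06 (24 h) in KO. In WT the values were 0.45, 0.039 and 0.08 (0 h), -0.27, -0.039 and -0.059 (6 h) and -0.31, -0.42 and -0.52 (24 h). KO replicate 3 of 24 h was far below the other arrays, yet the 0 h and 24 h arrays did not overlap in either genotype. KO fell by 0.77 (SE 0.176, adjusted p = 0.0145), and the WT difference was -0.61 (adjusted p = 0.156). Sf3b1, part of the complex that holds the branch point in the U2 particle, fell by 0.55 (SE 0.166, adjusted p = 0.0498), with KO values of -0.015 to 0.75 at 0 h and -0.30 to -0.062 at 24 h. Prpf38b fell by 0.60 (SE 0.149, adjusted p = 0.0217).

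Of the hnRNPs, Hnrnpa2b1 alone was called. This protein sorts RNAs for transport and splicing, and it read -0.009, 0.006 and 0.039 (0 h), -0.006, 0.056 and 0.11 (6 h) and -0.34, -0.28 and -0.49 (24 h) in KO. Values in WT were 0.27, 0.08 and 0.082 (0 h), 0.007, 0.14 and -0.15 (6 h) and -0.42, -0.031 and -0.21 (24 h). The KO arrays of 0 h lay close together and above all 3 of 24 h. It fell by 0.38 (SE 0.0941, adjusted p = 0.02), with a WT difference of -0.36 (adjusted p = 0.125). Hnrnpu, a nuclear scaffold protein that binds RNA and chromatin, had the largest SD of the set, with 0.41, 1.17 and 1.57 in KO and 1.44, -0.32 and -0.31 in WT at 0 h. At 6 h it read 0.13, -0.69 and -0.71 in KO and 0.15, 0.096 and -0.42 in WT. By 24 h it read -0.36, -0.35 and -0.048 in KO and -0.24, 0.42 and 0.048 in WT. Its difference of -1.31 in KO was not called (SE 0.409, adjusted p = 0.0591), and its further row gave -0.19. Hnrnph1 differed by -0.79 (SE 0.284, adjusted p = 0.0995), Hnrnpk by -0.35 and Hnrnpd by 0.06, and the further rows of Hnrnpk gave -0.28 and -0.19.

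All 3 helicases fell in KO at 24 h. Dhx9, which unwinds RNA duplexes and RNA-DNA hybrids, read -0.022, 0.17 and 0.32 (0 h), 0.24, 0.23 and 0.15 (6 h) and -0.21, -0.21 and -0.49 (24 h) in KO. For WT it read 0.49, 0.34 and 0.33 (0 h), -0.054, 0.019 and -0.019 (6 h) and -0.33, -0.14 and -0.13 (24 h). As with Pnn, all 6 arrays of 24 h lay below all 12 others. Dhx9 fell by 0.46 in KO (SE 0.0924, adjusted p = 0.00744) and by 0.58 in WT (SE 0.0924, adjusted p = 0.05 after rounding, inside the threshold). Ddx5 (p68) and Ddx17 (p72) are paralogues that act in splicing and as coactivators of transcription. Ddx5 had the largest difference of the set: it read 0.40, 0.94 and 1.58 (0 h), -0.094, -0.67 and -0.79 (6 h) and -0.55, -0.52 and -0.15 (24 h) in KO. In WT it read 1.203, 0.087 and -0.13 (0 h), 0.061, 0.61 and -0.061 (6 h) and -0.30, 0.37 and 0.11 (24 h). Its 3 highest values were the arrays of 0 h that stood apart. It fell by 1.38 in KO (SE 0.343, adjusted p = 0.021), a 2.61-fold difference, while the WT difference was -0.33 (adjusted p = 0.767). Ddx17 fell by 0.38 in KO (SE 0.11, adjusted p = 0.0423), and the WT difference was -0.13.

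**Figure D4:**
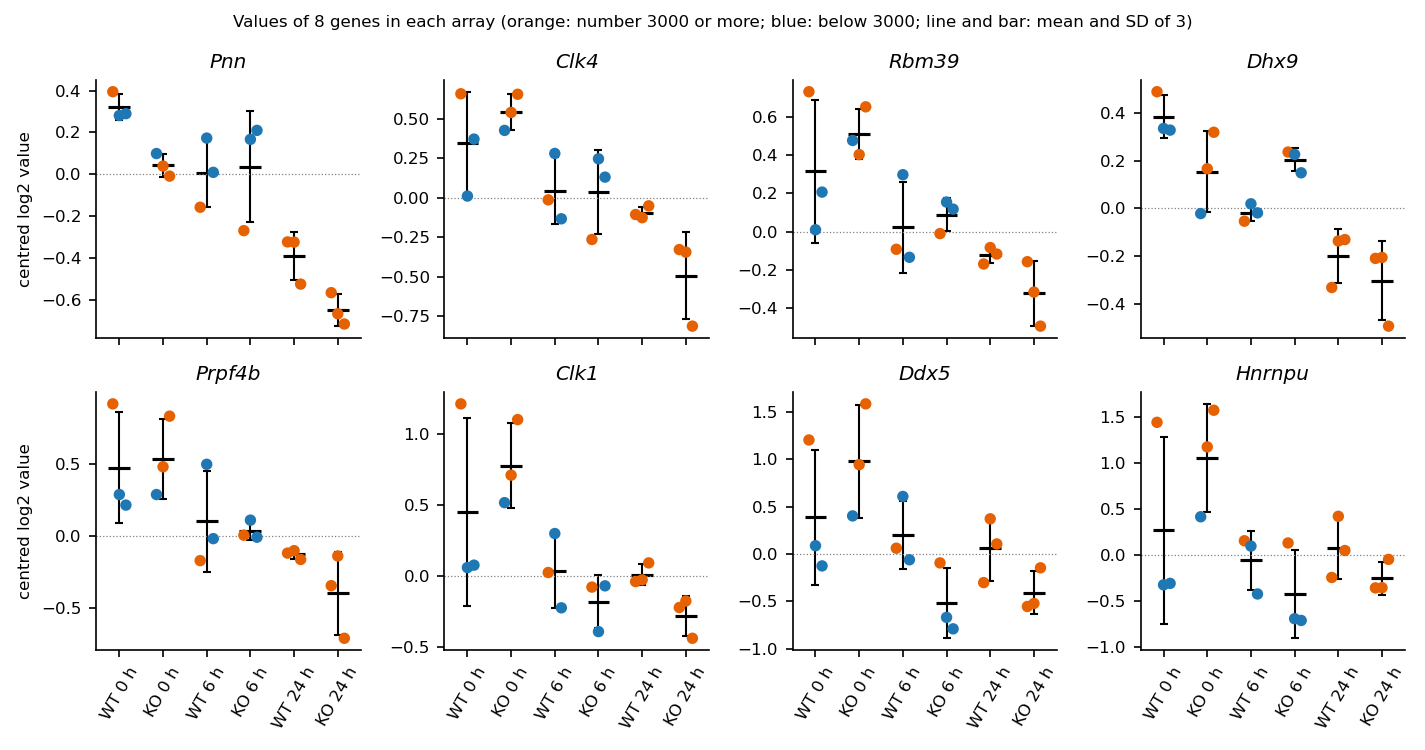
Centred log2 values of 8 genes in each array (points, coloured by label number), with the mean and SD of the 3 arrays of a group. Pnn and Dhx9 are lower in all arrays of 24 h than in all others, whereas Ddx5 and Hnrnpu lie between 0.94 and 1.58 in the 3 arrays of 0 h with higher numbers.

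A fit with a mean for each genotype, time and number class, added after the values were seen, separated these arrays (8 residual degrees of freedom; a cell with 1 array is assumed to vary like the rest). At 0 h, 8 genes were higher in the arrays with higher numbers and none was lower, against 1.11% of all rows higher, and 32 of the 34 lay above 0 with a median of 0.37 log2. After quantile normalization none of the 8 was called. They were Hnrnpu (1.36, SE 0.187, adjusted p = 0.0149), Srsf10 (0.96), Hnrnph1 (0.95), Clk1 (0.77), Son (0.57), Srsf2 (0.45), Srrm2 (0.42) and Srsf5 (0.37). The rows of Hnrnpu disagree: over all arrays the label number term was 0.96 in the chosen row and -0.004 (SE 0.0731) in the further one. At 6 h none was higher, 1 was lower (Pnn, -0.35, adjusted p = 0.0443, against 0.344% of all rows lower), and the median was 0.009. That call was lost under each of the 3 alternatives run (quantile normalization, array medians set to 0, all rows). A test of whether the number effect differed between 0 h and 6 h called 1 gene, Son, with a larger effect at 0 h (0.53, SE 0.119, adjusted p = 0.0461), against 0.816% of all rows larger there and 1.36% smaller.

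In that fit, averaged over the genotypes, 28 of the 34 genes were lower at 24 h than in the 0 h arrays with higher numbers (median -0.71 log2, against 10.7% of all rows lower). Against the 0 h arrays with lower numbers, 6 were lower (median -0.24, 30 of 34 below 0, against 3.29% of all rows lower; 12 after quantile normalization). None was higher in either. The 6 were Pnn (-0.71, SE 0.0636, adjusted p = 0.000847), Clk4 (-0.60), Hnrnpk (-0.59), Rbm39 (-0.52), Dhx9 (-0.41) and Tra2a (-0.39). For Hnrnpk this is 1 row of 3: the further rows had label number terms of -0.069 and -0.031, against -0.54 in the chosen row, and differences of 24 h from all 0 h arrays between -0.28 and -0.097 in the 2 genotypes. Pnn gave nearly the same value against both classes, -0.73 and -0.71, while Hnrnpu gave -1.49 and -0.14, Ddx5 -1.41 and -0.37, Hnrnph1 -1.16 and -0.21 and Srsf10 -1.07 and -0.11. The 2 comparisons share their arrays of 24 h. All arrays of 24 h have higher numbers, so a fall with time against the lower numbers and an effect of the number itself cannot be told apart there. Son, Clk1 and Luc7l2, called in KO, were not among the 6.

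**Figure D5:**
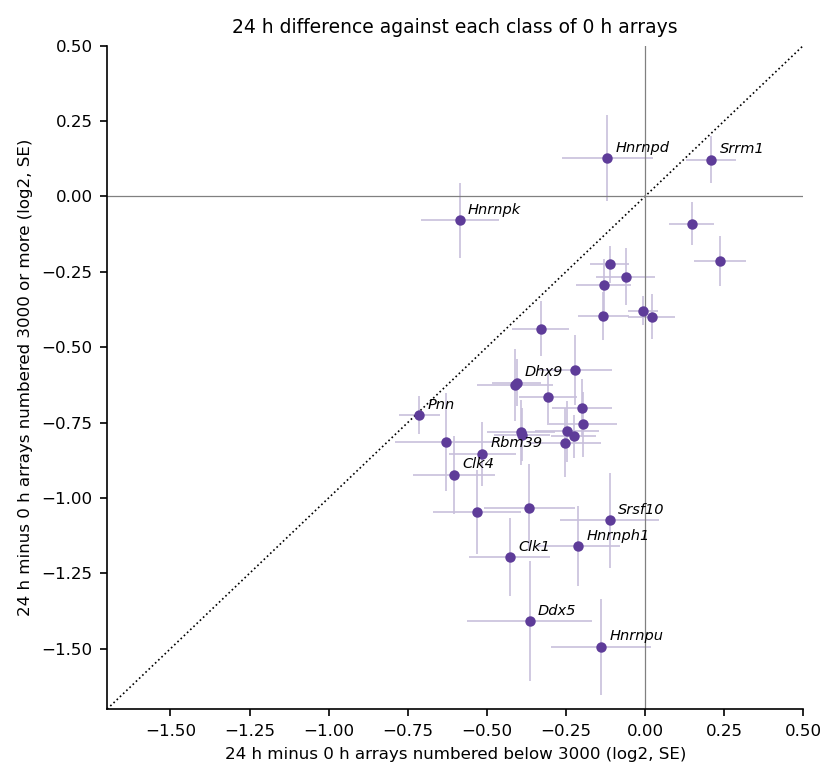
Difference between 24 h and the 0 h arrays with lower numbers (x) and with higher numbers (y), in log2 with SE bars, for each of the 34 genes, averaged over the genotypes; the dotted line marks equal values. Most points lie below the line, with Hnrnpu at -1.49 against -0.14, whereas Pnn lies on it.

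At 6 h, in the early response to stripping, 3 genes fell in KO, where 3.41% of all rows were lower and 4.98% changed either way. They were Ddx5 (-1.49 log2, SE 0.343, adjusted p = 0.0248), Clk1 (-0.96, SE 0.246, adjusted p = 0.0384) and Rbm5 (-0.84, SE 0.186, adjusted p = 0.0218). None rose, and the median of the 34 genes was -0.23 with 25 below 0. This comparison shares its 0 h arrays with that of 24 h. None of the 3 was called when the KO array of 0 h with a lower number stood alone, and 11 genes were called against the 2 with higher numbers. None stayed called without KO replicate 2 or 3 of 0 h or without KO replicate 2 or 3 of 6 h. The share of all rows called in these refits is not given here. With the label number as a block, 4 genes were lower and Srrm1 was higher (0.36). Among the KO arrays with lower numbers, 1 at 0 h and 2 at 6 h, none was called and the median was -0.08. In WT none of the 34 genes was called at 6 h, nor was any row of the array (limma, 7 of the 34 with an unadjusted p under 0.05), and the median was -0.23 with 31 below 0. The WT arrays of 6 h lay below those of 0 h with no overlap for 7 genes and above for none, against 3.79% and 5.47% of all rows. Dhx9 differed by -0.40 and Rbm25, a regulator of exon choice, by -0.53, both with no overlap and an adjusted p of 1.

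The difference between 6 h and 24 h does not use the 0 h values, although the 0 h arrays enter the shared estimate of the spread. In KO 3 genes fell, where 0.616% of all rows were lower and 1.24% changed either way. They were Pnn (-0.69, SE 0.112, adjusted p = 0.0131), Dhx9 (-0.51, SE 0.0924, adjusted p = 0.0195) and Hnrnpa2b1 (-0.42, SE 0.0941, adjusted p = 0.0444). The median of the 34 genes was -0.20 with 30 below 0, and in 17 the arrays of 24 h lay below those of 6 h with no overlap (9.02% of all rows), and in none above (7.96%). Ddx5, Clk1 and Rbm5, which were low by 6 h, differed by 0.11, -0.099 and 0.011 from 6 h to 24 h. With the label number as a block only Dhx9 kept its call, and no call was made with these 2 groups fitted alone or among higher numbers alone. None was called without KO replicate 2 or 3 of 6 h or without KO replicate 3 of 24 h. In WT none was called, nor was any row of the array (limma, 3 of the 34 with an unadjusted p under 0.05), and the median was -0.13. Without overlap, 5 genes were lower and 1 higher, against 6.41% and 6.46% of all rows.

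The comparison of KO with WT at one time asks what loss of AhR changes. At 0 h none of the 34 genes was called, against 0.0978% of all rows (0.0128% higher, 0.085% lower; limma, 5 with an unadjusted p under 0.05), and the differences ran from -0.41 for Hnrnpd to 0.78 for Hnrnpu. The further row of Hnrnpu had the opposite sign, at -0.245 (SE 0.0945). Label numbers are not balanced between the genotypes at 0 h (higher in KO replicates 2 and 3 and in WT replicate 1), and their part was not tested. KO lay below WT with no overlap for 4 genes, against 7.71% of all rows, and above it for none (5.98%). The 4 were Rbm25 (-0.39), Pnn (-0.28), Dhx9 (-0.23) and Hnrnpa2b1 (-0.13). At 6 h none was called, against 2.18% of all rows (1.82% lower, 0.366% higher; limma, 5 with an unadjusted p under 0.05), and 6 genes were higher and 6 lower with no overlap, against 7.42% and 10.3% of all rows. Among the chosen rows Srrm1 was the nearest to the threshold (0.35, SE 0.107, adjusted p = 0.107), and the further row of Hnrnpd was nearer (0.54, SE 0.147, adjusted p = 0.0743). Among the arrays of 6 h with lower numbers, 2 against 2, Srrm1 was higher by 0.39 and Ddx5, Rbm5 and Srrm2 were at -1.003, -0.56 and -0.41, against 7.06% of all rows called.

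At 24 h none was called, against 0.017% of all rows (0.0128% higher, 0.00425% lower; limma, 2 with an unadjusted p under 0.05), while 31 of the 34 lay below 0 with a median of -0.14 against -0.001 over all rows. KO lay below WT with no overlap for 7 genes, against 6.53% of all rows, and the reverse held for none (6.36%). Clk4 (-0.40, adjusted p = 0.699) and Pnn (-0.26, adjusted p = 0.699) had the smallest p. Averaged over the 3 times none was called, against 0.374% of all rows (limma, 3 with an unadjusted p under 0.05), with values from -0.20 to 0.17. The genotype difference in the 6 h response also called none, against 0.731% of all rows (limma, 6 with an unadjusted p under 0.05), with -1.31 for Ddx5, -1.15 for Hnrnpu (0.24 in its further row) and -0.98 for Rbm5, which had the smallest adjusted p among the chosen rows (0.0972). With WT replicate 1 of 0 h left out, that comparison called 6 genes, a count without the share of all rows beside it. With the label number as a term over all arrays, Hnrnpu was higher by 0.96 and Hnrnpk lower, at -0.54, in the higher numbers, against 0.302% of all rows. Neither was called when the rows of each gene were averaged.

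Other genes of the splicing machinery, in lists drawn up by role, did not all move this way in KO at 24 h. The shares of all rows to read each count against are 6.47% lower and 3.09% higher. Of 29 other SR-related proteins measured, 9 were lower (31.0%) and 1 higher, with a median of -0.30 log2. The smallest p belonged to Rsrc2 (-1.03), Rbm6 (-0.72), a relative of Rbm5, and Scaf11 (-0.48), and the 1 that rose was Srsf9 (0.39), named after its value was seen. Of 39 other hnRNPs and RNA-binding regulators, 9 were lower (23.1%) and 2 higher (median -0.18), among them Tardbp (TDP-43, -0.72), Matr3 (matrin 3, -0.94) and Hnrnpa3 (-0.81). Of 45 other DEAD and DEAH box helicases, 8 were lower (17.8%) and none higher although the median was 0.037, with Ddx50 at -0.68, Eif4a2 at -0.98 and Ddx6 at -0.62. Of 12 other splicing kinases and phosphatases, Srpk2, a kinase of SR proteins, was lower (-0.35) and Ppm1g higher (0.51).

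Of 63 core snRNP and spliceosome proteins measured, 11 were higher (17.5%, against 3.09% of all rows), with a median of 0.22. The 5 that were lower (7.94%) are near the 6.47% of all rows. Snrpd2, an Sm ring protein, rose by 0.80 (SE 0.166, adjusted p = 0.00874) and Phf5a, of the SF3b complex that also holds Sf3b1, by 0.67 (SE 0.131, adjusted p = 0.00658), whereas Slu7, which acts in the second step of splicing, fell by 0.71 (SE 0.0958, adjusted p = 0.0015). In its array medians the core list lay lower in the 3 arrays of 0 h that stood apart, at -0.14 to -0.08, than in the other 3, at -0.046 to 0.085. Of 16 genes of the exon junction complex, mRNA export and nonsense-mediated decay, 4 were lower and 2 higher, together 37.5% against 9.56% of all rows, among them Thoc2 (-0.90) and Upf2 (-0.85) and, higher, Thoc3 (0.48). Cytosolic ribosomal proteins had 3 higher and 1 lower of 37 (median 0.17), a share of 10.8% near the 9.56% of all rows. Of 11 reference genes, 2 were higher (18.2%) and 1 lower (9.09%), together 27.3%, so this list did shift. None was called of 10 mitochondrially encoded transcripts, 8 nuclear-retained long RNAs and 18 immediate early genes. In WT at 24 h no gene of these lists was called, where 0.0298% of all rows were. The genotype difference in the 24 h response called no row, so a contrast between the genotypes was not shown for these lists.

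At 6 h in KO the core list had 5 higher (7.94%) and none lower of 63, against 1.57% of all rows higher and 3.41% lower, with Snrpb (0.52), Isy1 (0.51) and Snrpd2 (0.75) at the smallest p. Other helicases had 2 higher, the nucleolar Ddx21 (0.71) and Ddx27 (0.47), and for Ddx21 the response differed between genotypes (1.03, adjusted p = 0.0454). Of the other regulators, Elavl1 (0.36) and Hnrnpab (0.30) were higher and the epithelial splicing factor Esrp1 was lower (-0.36). Among other SR-related proteins Rbm17 was higher (0.39) and Rsrp1 lower (-0.70), the kinase list had Dyrk1b lower (-0.43), and Thoc3 was higher (0.45). Immediate early genes had 5 of 18 lower (27.8%, against 3.41% of all rows) and none higher. Against WT at 6 h, 0.366% of all rows were higher and 1.82% lower in KO. Of the 39 other regulators, Hnrnpab was higher (0.32) and Esrp1 lower (-0.32), 2.56% each, which for the lower direction is near the share of all rows. Thoc3 (0.55) was higher, as 1 of 16 genes of its list (6.25%). Of 18 immediate early genes, 8 were lower (44.4%) and none higher. From 6 h to 24 h in KO, where 0.616% of all rows were lower, 4 other hnRNPs and regulators were lower (10.3%), among them Tardbp (-0.69), Hnrnph2 (-0.64) and Syncrip (-0.63), as were Ddx50 (-0.45), Ddx46 (-0.59) and Slu7 (-0.44).

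Gene length moved with the arrays as well. In RefSeq gene spans, the 34 genes had a median of 20.9 kb (3.78 to 58.6), close to the 18.7 kb of the 18984 protein-coding genes with a span, while the core list had 14.4 kb and ribosomal proteins 3.4 kb. All genes were split by span into 4 classes of equal size. The median of the longest class (over 48.0 kb) minus that of the shortest (under 6.5 kb) was highest in WT replicate 1 of 0 h, at 0.096 log2, and lowest in KO replicate 2 of 24 h, at -0.062. From 0 h to 24 h in KO, the 4 classes of all genes had medians of 0.046, 0.046, 0.004 and -0.035 from shortest to longest, and the genes of the set in them -0.17 (3 genes), -0.74 (12), -0.50 (16) and -0.69 (3). In each class the median of the set lay below that of all genes of that span. The set was chosen with results of these arrays known, and the part of gene span in its values was not tested.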

How the data were processed

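The data are 18 arrays of epidermal RNA, 3 for each genotype and time. The authors deposited log2-type values with each row set to a median of 0 over the arrays, as the values themselves show; the log base is inferred, and for background correction, summarisation and software the sources used here state nothing. The median over all rows lay between -0.0187 and 0.0107 in every array, and the number of arrays limits the precision. Of 33793 rows, 23521 name 1 gene, 1814 name several and 8458 none. With limma 3.58.1 in R 4.3.3, 1 model of the 6 group means was fitted to the 23521 rows (12 residual and 2.76 prior degrees of freedom), unfiltered, with Benjamini-Hochberg adjustment over all of them. A gene was called at an adjusted p under 0.05, and every adjusted p in the text is limma's. The test was checked on simulated data.

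The genes and the lists by role were chosen with earlier results of these data known. Values in every array are given for the 12 called genes with the smallest adjusted p, and for Ddx5 and Hnrnpu, added after their values were seen; of each further list, up to 3 genes with the smallest p are named. Alternatives were other normalizations, row filters, variance models, blocks and left-out arrays. The separate use of 0 h arrays by label number, the fit by number class and the use of genes with 1 row were chosen after seeing the data.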

Additional observations from a re-analysis of the deposited data

Results flagged for a closer look

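For Son, the speckle protein, the difference between arrays with higher and lower label numbers was larger at 0 h than at 6 h by 0.528 log2 (SE 0.119, limma adjusted p = 0.0461). It was 0.57 at 0 h and 0.041 at 6 h. The interaction of number class and time is what singled it out, and no other gene of the 34 passed that test. The meaning of the number is not given in the labels, and what it stands for was not tested.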

How the results depend on the processing

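No called result reversed its direction under the alternatives run; the median genotype difference at 24 h, which was not called, changed sign as stated. For 24 h against 0 h in KO (19 genes), the alternatives other than left-out arrays gave 16 to 24 calls, all lower but Srrm1 with array weights, except 0 with the 0 h array of lower number only. For the same comparison in WT (2), 0 were called with array medians at 0, all rows, a trended robust variance, the groups alone, the replicate block or 0 h arrays of lower numbers only, 1 with the number block, 11 within higher numbers and 9 with the 0 h array of higher number only. For 6 h against 0 h in KO (3), calls were 5 after quantile normalization, 9 with the more variable rows, 6 with array weights, 5 with the number block (4 lower, Srrm1 higher), 0 within lower numbers, and 0 or 11 with 0 h arrays of lower or higher numbers only. For 24 h against 6 h in KO (3), they were 0 with the groups alone, 1 with the number block and 0 within higher numbers. KO against WT at 6 h (0) gave 1 with the number block and 4 within lower numbers. The genotype difference in the 6 h response (0) gave 1 with the more variable rows and 1 with array weights. The label number term (2) gave 5 with the more variable rows, 4 with array weights, and 0 with averaged rows, a trended robust variance or genes of 1 row. Of the comparisons of number classes, that at 0 h (8) gave 0 after quantile normalization, that at 6 h (1) gave 0 after it, with array medians at 0 and with all rows, and 24 h against lower numbers (6) gave 12 after it. The mean over the 34 genes, in place of the median, was 0.054 and -0.007 in KO replicates 1 and 2 of 6 h and -0.283 in KO replicate 3 of 24 h. The causes were not tested. Counts in this section stand without the share of all rows called under the same setting.

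Leaving out 1 array gave 4 to 21 calls for 24 h against 0 h in KO, 0 to 6 for 6 h against 0 h in KO, 0 to 4 for 24 h against 6 h in KO, 0 to 6 for the genotype difference at 6 h, 0 to 7 for the label number, 0 to 1 for KO against WT at 6 h, and 0 for 24 h against 0 h in WT. Replicate numbers were not used to pair the arrays: of 45 same-numbered pairs, 9 had correlated deviations above 0.1 (range -0.458 to 0.251). Pairs with different numbers were not examined, so these values cannot settle whether arrays are paired. The replicate block left 16 calls at 24 h in KO and 2 each at 6 h and for 24 h against 6 h.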
